A study of Mus musculus with 8 samples.

Results

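The 10 miRNAs described here are markers of tissues other than fat. They comprise mmu-miR-122, which marks liver, mmu-miR-200a, mmu-miR-200b, mmu-miR-200c, mmu-miR-141, mmu-miR-429 and mmu-miR-205, which mark epithelium, and mmu-miR-124, mmu-miR-9 and mmu-miR-128, which mark neural tissue; the species prefix is left out below. They were taken by their exact names from the 576 miRNAs on the array, and every probe of each was read. The samples were brown adipose tissue, a fat that burns fuel to make heat, from C57Bl6N males 8 weeks old. The cold group held 3 mice (mice 1 to 3) kept at 8 °C for 24 h, and the room temperature group held 3 mice (mice 4 to 6) kept at 21 °C, with no transgene or drug named for either group. RNA was measured on 8 Agilent 1-colour arrays, 2 each for mice 1 and 4 and 1 for each other mouse, and arrays of the same mouse were averaged. The question for each marker was whether its signal stood above the background of its own array, and whether it differed between cold and room temperature mice.

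A miRNA is a short RNA that, held by an Argonaute protein, pairs with messenger RNAs mainly through its seed, bases 2 to 8, and lowers their translation and stability. Some miRNAs are made almost wholly in a single cell lineage, so their presence in the RNA of a dissected tissue is a sensitive sign of other cells or of RNA carried in from elsewhere. miR-122 is the most abundant miRNA of hepatocytes, where it bears on cholesterol and lipid metabolism. The miR-200 family holds cells in the epithelial state by repressing the transcription factors Zeb1 and Zeb2, and miR-205 does so in stratified epithelia. miR-124 and miR-9 are abundant in neurons and neural progenitors, where they repress non-neuronal and progenitor programmes, and miR-128 is a brain-enriched miRNA that dampens neuronal excitability.

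The mature sequences are shown because those of the miR-200 family are near-identical, so that a probe may also bind a relative, whereas miR-205, miR-9 and miR-128 each have a seed of their own. RefSeq (GRCm38.p6) held a sequence for 8 of the 10 miRNAs, with 5 different seeds among them. The array names carry no arm, and each was matched to the arm that RefSeq now calls 3p or, for miR-205 and miR-9, 5p. Sequences are written 5′ to 3′, and capitals mark the seed.
miR-429: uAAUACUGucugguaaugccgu
miR-200b: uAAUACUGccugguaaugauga
miR-200c: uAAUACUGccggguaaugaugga
miR-200a: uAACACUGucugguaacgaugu
miR-141: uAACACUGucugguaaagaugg
miR-205: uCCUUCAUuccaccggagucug
miR-9: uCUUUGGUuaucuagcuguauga
miR-128: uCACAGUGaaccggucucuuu

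The 5 members of the miR-200 family fell into 2 seed groups. miR-200b, miR-200c and miR-429 shared the seed AAUACUG, and miR-200a and miR-141 shared AACACUG. The seeds differed by 1 base, C4U from miR-200a to miR-200b, counted from the 5′ end of the miRNA. Over the whole mature sequence miR-200a and miR-141 differed at 2 of 22 positions (C17A and U22G), and miR-200b and miR-200c differed at 2 of their first 22 (U11G and A22G). In the genome the family lay in 2 clusters, both on the minus strand. miR-429 (chr4:156053916-156053937), miR-200a (chr4:156054911-156054932) and miR-200b (chr4:156055685-156055706) lay within the long non-coding RNA gene Gm13648. miR-141 (chr6:124717917-124717938) and miR-200c (chr6:124718324-124718346) lay side by side. miR-205 (chr1:193507503-193507524, minus strand) lay in its host gene Mir205hg. miR-9 is encoded by 3 genes, on chromosomes 3, 7 and 13, each inside a long non-coding RNA gene. miR-128 is encoded by 2 genes, inside the protein-coding genes R3hdm1 (chr1:128202404-128202424, plus strand) and Arpp21 (chr9:112118644-112118664, minus strand). A signal of miR-9 or miR-128 therefore cannot be assigned to any of its genes.

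The values are background-subtracted spot intensities in the scanner software's signal units, and 0 units is the software's own background. The software also marks each spot as well above background or not, and a miRNA was counted as well above background on an array when more than 0.5 of the spots of at least 1 of its probes carried that mark. Each array held 672 negative control spots, which match no miRNA. Their mean lay between -0.093 and 0.662 units on cold arrays and between -0.159 and 0.749 units on room temperature arrays. Their spread was wider than that, with an SD of 1.75 to 2.69 units over the 8 arrays and a 95th percentile of 2.73 to 5.17 units. None of the 5248 control spots that were not outliers was marked as well above background. Each marker had 2 probes with about 10 spots a probe. The precision of its values is limited by the small number of mice and arrays and by the scatter of spots within an array. All cold arrays lay in 1 row of the only slide and all room temperature arrays in the other, so array row and temperature cannot be told apart. Nothing in the labels said whether the mice were housed or dissected together.

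The bright probes differed in level between arrays: the 75th percentile of the probes well above background on all arrays, used for scaling, was 574 to 918 units on cold arrays and 863 to 1408 units on room temperature arrays. The signal of miRNAs known from brown fat is given for comparison. Their list was chosen with earlier results of these data known, so it is no test of the tissue label. The 5 listed (miR-193b, miR-193, miR-365, miR-378 and miR-455) were well above background on all 8 arrays, as were 27.6% of the 576 miRNAs. Their summed signal ranged from 6971 to 12675 units in cold mice and from 8189 to 14306 units in room temperature mice. Divided by the array's scaling percentile, the same sum was 11.04 to 14.7 in cold mice and 8.32 to 10.2 in room temperature mice, so that the overlapping ranges became higher in cold without overlap. Striated muscle miRNAs were bright as well. The sum of 6 (miR-1, miR-133a, miR-133b, miR-206, miR-208b and miR-499) ranged from 1947 to 6664 units in cold mice and from 10508 to 24322 units in room temperature mice, without overlap, and scaled from 2.12 to 10.6 in cold mice and from 12.2 to 17.97 in room temperature mice. In bulk tissue, fewer cells of a type and less RNA per cell cannot be told apart.

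Of the 10 markers, 1 was well above background on every array (miR-128), 1 on every room temperature array and no cold array (miR-122), and 8 on no array. Across all 576 miRNAs on the array, 59.5% were well above background on no array and 27.6% on all arrays. The pattern of miR-122, with 4 of 4 room temperature arrays and 0 of 4 cold arrays, was shared by 8 of the 576 miRNAs (1.39%). The 8 undetected markers had 16 probes, and 0 of their 625 spots on cold arrays and 2 of their 616 spots on room temperature arrays were marked as well above background. By the software's weaker mark, a signal positive and significant against background, 15.1% of the 1241 spots passed, against 16.5% of the negative control spots. By group, 13.6% passed on cold arrays and 16.7% on room temperature arrays. The control share of single arrays was 14.0% to 21.1% in cold and 11.3% to 23.3% at room temperature. Above the 95th percentile of the control spots lay 5.12% of the markers' spots in cold and 9.09% at room temperature.

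**Figure D1:**
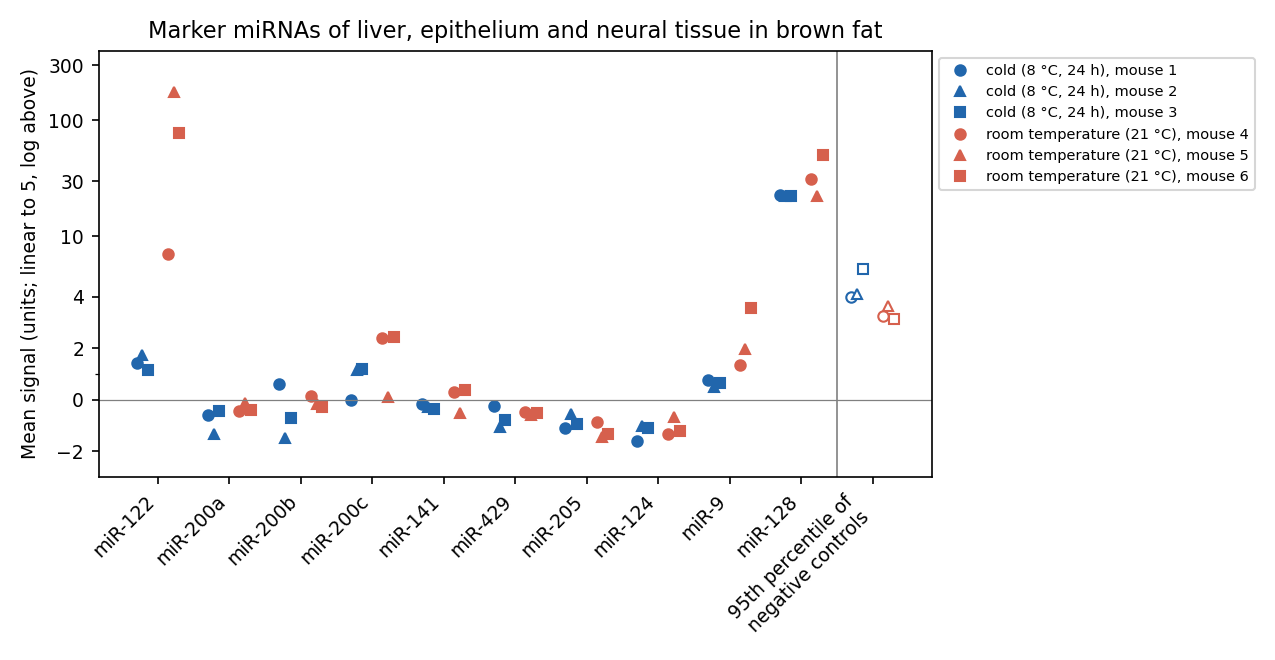
Mean signal of each marker in each mouse (vertical axis in scanner units, linear up to 5 and logarithmic above), with cold mice in blue left of room temperature mice in red. Open symbols give the 95th percentile of the single negative control spots of each mouse, a stricter level for means over spots. miR-128 lies above 20 units in all 6 mice and miR-122 above 5 units in the room temperature mice only, while the other 8 markers lie below 5 units.

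The liver marker miR-122 was well above background in no cold mouse and in every room temperature mouse. Its mean signal over both probes was 1.43, 1.74 and 1.17 units in cold mice 1, 2 and 3, and 7.01, 177 and 77.3 units in room temperature mice 4, 5 and 6. The groups did not overlap, and within the room temperature group mouse 4 stood nearest to the cold mice. The means were 1.44 ± 0.286 units in cold mice and 87.2 ± 85.6 units in room temperature mice (SD, n = 3 each). The exact permutation test gave a 2-sided p of 0.1, the smallest that 3 mice against 3 can give. Unscaled signals that did not overlap and were lower in cold were found for 16.3% of the 576 miRNAs, and among the members for 2 of 10, miR-122 and miR-9.

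Both probes of miR-122 gave mouse 5 the highest, mouse 6 the next and mouse 4 the lowest room temperature value, whereas the order of the cold mice differed between the probes. Probe A_54_P2401 read 1.74, 1.82 and -0.116 units in the cold mice, against 10.9, 259 and 119 units in room temperature mice 4, 5 and 6. Of its spots, 0 of 40 on cold arrays and 31 of 38 on room temperature arrays were well above background. Probe A_54_P2400 was dimmer, at 1.12, 1.65 and 2.45 units in the cold mice, against 3.15, 96.3 and 35.4 units in room temperature mice 4, 5 and 6. It was well above background on 0 of 4 cold arrays and on 2 of 4 room temperature arrays, those of mice 5 and 6. The 2 arrays of mouse 4 read 9.84 and 11.9 units for A_54_P2401, which was well above background on both, and mouse 5 was 23.8 times as bright as mouse 4 by that probe.

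On the normalised scale (log2 of the signal over each array's 75th percentile, with values under 0.01 set to 0.01) miR-122 was tested through probe A_54_P2401 alone, which passed the filter on dim probes only because of the room temperature arrays. All cold arrays lay at the floor of -6.64, and room temperature mice 4, 5 and 6 lay at -6.51, -1.74 and -3.56. With limma the difference was -2.71 ± 1.01 on the log2 scale (SE, 95% interval -5.05 to -0.36), and its Benjamini-Hochberg adjusted p over 189 miRNAs was 0.115, so it did not pass the threshold of 0.05. Over all tested miRNAs 15.3% passed in either direction and 6.88% were lower in cold, and of the 2 markers tested neither passed. Normalised levels of miR-122 did not overlap between the groups, which held for 18.5% of the tested miRNAs in the direction lower in cold. For miR-122 the filter favoured this order, and mouse 4 at -6.51 lay just above the floor of -6.64 that was imposed on the cold mice. No separation is therefore read from it. Since no cold array had the probe well above background, the size is only bounded. Each cold array was set to the dimmest signal still well above background there, or to the probe's own where brighter. The mean of these cold bounds was -6.23, and the room temperature mean lay 4.89-fold above it. Mice 5 and 6 carried that mean, while mouse 4 at -6.51 lay below the cold bound, so the fold does not hold for each mouse. In this fit the cold values, all at the floor, had no spread of their own, so its p for miR-122 leaves out the spread of the cold mice, and no call is read from it. The value moved with the setting: the difference was -3.99 without mouse 4 (limma adjusted p of 0.00424), -6.47 with the percentile over all probes (limma adjusted p of 0.0393), -2.94 with arrays not scaled and -0.94 under normexp background correction (limma adjusted p of 0.2). Over the 14 alternatives the difference was below 0 in each, and the limma adjusted p ranged from 2.594e-13 (arrays not scaled) to 0.4265 (dim probes kept). Where all cold values lie at the floor the difference cannot be above 0, so the shared sign is no support for a fall in cold. None of these p-values, the smallest included, is read as evidence.

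The other liver-enriched miRNAs on the array did not share the pattern of miR-122. miR-192 and miR-194, which liver makes together with gut and kidney, were the 2 listed miRNAs besides it, and both were well above background on all 8 arrays. miR-192 read 57.4, 70.4 and 83.9 units in the cold mice, against 86.7, 95.7 and 106.6 units in room temperature mice 4, 5 and 6. Its unscaled values did not overlap, but its normalised level differed by 0.05 on the log2 scale (limma adjusted p = 0.84). miR-194 read 10.5, 12.5 and 18.7 units in the cold mice, against 14.3, 17.4 and 23.7 units in room temperature mice 4, 5 and 6, with overlap between the groups. Its normalised level differed by 0.12 on the log2 scale (limma adjusted p = 0.674). Whether liver RNA entered the room temperature samples was not tested.

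**Figure D2:**
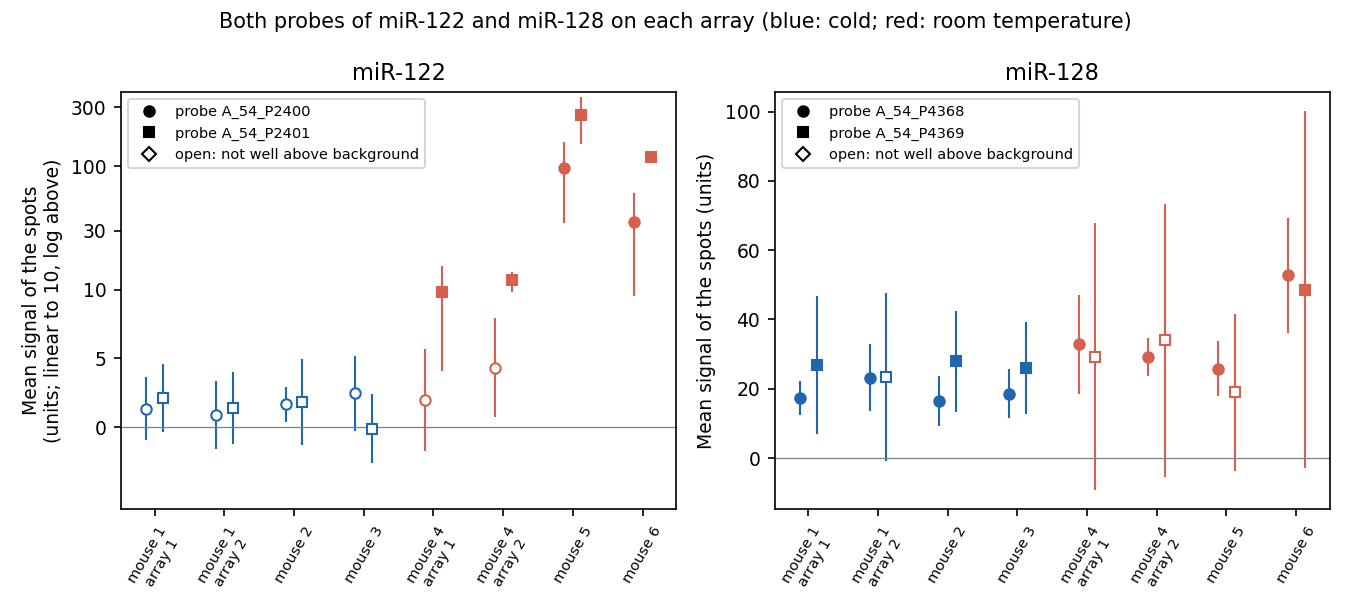
Mean signal of the 10 or fewer spots of each probe of miR-122 (left, vertical axis linear up to 10 units and logarithmic above) and miR-128 (right, linear axis) on each array, in scanner units, with bars of 1 SD over spots. Both miR-122 probes are low on all cold arrays and reach their highest values in mouse 5, at 96.3 and 259 units, while the bars of probe A_54_P4369 of miR-128 are as long as its values on several arrays.

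None of the 6 epithelial markers was well above background on any array. Over their 12 probes, 0 of 467 spots on cold arrays and 0 of 466 spots on room temperature arrays carried the mark, and the mean of a probe on an array lay between -2.91 and 4.81 units. Of these miRNAs, miR-200c alone had a probe whose mean passed the 95th percentile of the control spots, on 3 room temperature arrays, both of mouse 4 and that of mouse 6. That percentile is of single spots and is a stricter level for a mean over spots, so a mean under it does not show absence.

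miR-200c read 0.0076, 1.14 and 1.20 units in cold mice 1, 2 and 3, and 2.39, 0.10 and 2.46 units in room temperature mice 4, 5 and 6. The groups overlapped, since mouse 5 lay with the low cold mouse 1 (exact permutation p = 0.3). Most of the signal came from probe A_54_P2614, at 0.941, 2.33 and 1.82 units in the cold mice, against 4.50, 1.80 and 3.43 units in those at room temperature. Of the spots of that probe, 15.4% on cold arrays and 57.5% on room temperature arrays lay above the 95th percentile of the negative control spots of their array, a level that by its definition 5% of control spots exceed. These shares pool arrays, and mice 1 and 4 had 2 arrays each. At room temperature 8 of 10 and 7 of 10 spots of mouse 4 lay above that level, 2 of 10 of mouse 5 and 6 of 10 of mouse 6. In cold it was 4 of 10 and 0 of 10 for mouse 1, 1 of 10 for mouse 2 and 1 of 9 for mouse 3. Set against the negative controls over all 6 mice, miR-200c was 1.00 ± 1.16 units higher (SD, n = 6), above them in 4 of 6 mice, and the exact sign-flip test gave p = 0.125. With its brighter probe in place of the mean of both, the difference was 2.25 units with an exact sign-flip p of 0.0312. That probe was picked as the brighter in these same data, which favours a value above the controls. The brightest of the negative control sequences also lay above the mean of all control spots in 6 of 6 mice, by 0.895 units on average.

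The other members of the family lay at or under the controls. miR-200a read -0.590, -1.31 and -0.423 units in the cold mice, against -0.427, -0.136 and -0.375 units in those at room temperature, and it lay below the mean of the negative controls in 6 of 6 mice. miR-429 read -0.223, -1.06 and -0.768 units in the cold mice, against -0.473, -0.606 and -0.493 units in those at room temperature, also below the controls in 6 of 6 mice. Their average distances from the controls were -0.760 ± 0.366 units for miR-200a and -0.821 ± 0.369 units for miR-429 (SD, n = 6 each). For both, the groups of mice overlapped.

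miR-200b and miR-141 were not distinguished from the negative controls. miR-200b read 0.622, -1.48 and -0.686 units in the cold mice, against 0.157, -0.179 and -0.293 units in those at room temperature, and its difference from the controls was -0.527 ± 0.702 units (exact sign-flip p = 0.156, n = 6). miR-141 read -0.168, -0.296 and -0.359 units in the cold mice, against 0.30, -0.513 and 0.402 units in those at room temperature, and its difference from the controls was -0.323 ± 0.542 units (exact sign-flip p = 0.25, n = 6). Each group's range overlapped the other's for both miRNAs.

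miR-205, the marker of stratified epithelium, lay below the controls in every mouse. It read -1.10, -0.546 and -0.943 units in the cold mice, against -0.85, -1.44 and -1.31 units in those at room temperature. Its mean distance from the controls was -1.25 ± 0.445 units (SD, n = 6).

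The epithelial list also held 9 other miRNAs. Of these, 5 were well above background on no array, namely the star strands miR-200a*, miR-200b*, miR-200c* and miR-141*, the other arms of the same precursors, and the endocrine and gut miRNA miR-375. Their values ranged from -3.39 units for miR-375 in cold mouse 3 to -0.506 units for miR-200b* in cold mouse 2. By contrast, miR-203, a skin miRNA, and miR-96 and miR-183, of the sensory cluster that also holds miR-182, were well above background on all 8 arrays, and miR-182 on some. Which cells of the tissue gave these signals was not tested. miR-203 read 88.6, 128.4 and 167 units in the cold mice, against 157, 148 and 170 units in those at room temperature. The normalised level of miR-203 differed by 0.42 on the log2 scale (limma adjusted p = 0.14), that of miR-182 by 0.40 (limma adjusted p = 0.0864), that of miR-183 by 0.06 (limma adjusted p = 0.917) and that of miR-96 by -0.27 (limma adjusted p = 0.437). None of these 4 passed the test, and their median difference was 0.23 on the log2 scale, against -0.02 over all 189 tested miRNAs.

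miR-124, the most neuron-specific of the 3 neural markers, gave no signal. It read -1.61, -1.02 and -1.10 units in cold mice 1, 2 and 3, and -1.33, -0.681 and -1.19 units in room temperature mice 4, 5 and 6. The groups overlapped (exact permutation p = 0.6), and no spot of either probe was well above background on any of the 8 arrays. Its distance from the negative controls was -1.37 ± 0.428 units (SD, n = 6), below them in 6 of 6 mice and also below the lowest of the 7 negative control sequences in 6 of 6 mice, as was miR-205. Over the whole array 23.6% of the miRNAs lay below the lowest control sequence in every mouse.

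miR-9 was faint, and with the arrays of a mouse averaged it was lower in each cold mouse than in each room temperature mouse. Its mean over both probes was 0.773, 0.507 and 0.662 units in cold mice 1, 2 and 3, and 1.37, 1.97 and 3.58 units in room temperature mice 4, 5 and 6. Mouse 6 was the brightest, and the groups did not overlap (exact permutation p = 0.1, the smallest that 3 mice against 3 can give). Probe A_54_P2294 read 1.42, 2.46 and 2.39 units in the cold mice, against 2.05, 3.39 and 5.14 units in those at room temperature, with overlap between the groups. Probe A_54_P2295 read 0.128, -1.45 and -1.07 units in the cold mice, against 0.686, 0.562 and 2.02 units in those at room temperature, without overlap. Of the spots of A_54_P2294, 0 of 39 on cold arrays and 2 of 38 on room temperature arrays were well above background, and no array counted as detected. miR-9*, from the other arm of the same precursors, was likewise well above background on no array. It read 1.30, 2.36 and 2.34 units in the cold mice, against 2.34, 4.18 and 5.65 units in those at room temperature, with overlap by mice 3 and 2 at the edge of mouse 4.

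miR-128 was the only marker of the 10 that was well above background in every mouse. Its mean over both probes was 22.7, 22.2 and 22.3 units in cold mice 1, 2 and 3, and 31.3, 22.4 and 50.7 units in room temperature mice 4, 5 and 6. The cold mice lay within 1 unit of each other, and room temperature mouse 5 lay among them. The means were 22.4 ± 0.266 units in cold mice and 34.8 ± 14.5 units in room temperature mice (SD, n = 3 each, exact permutation p = 0.2).

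The 2 probes of miR-128 gave different pictures of the comparison. Probe A_54_P4368 read 20.3, 16.4 and 18.6 units in the cold mice, against 31.0, 25.8 and 52.7 units in those at room temperature, without overlap (exact permutation p = 0.1). Of its spots, 29 of 39 on cold arrays and 36 of 38 on room temperature arrays were well above background. Probe A_54_P4369 read 25.2, 28.0 and 26.0 units in the cold mice, against 31.6, 18.9 and 48.6 units in those at room temperature, with room temperature mouse 5 below every cold mouse (exact permutation p = 0.7). Its spots scattered widely within an array, with an SD over spots from 13.2 units on an array with a mean of 26.0 to 51.6 units on an array with a mean of 48.6. It was well above background on 3 of 4 cold arrays and 1 of 4 room temperature arrays and did not pass the filter on dim probes.

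In the normalised fit miR-128 therefore rested on A_54_P4368. Its normalised level was -4.96, -5.67 and -5.62 in cold mice 1, 2 and 3, and -4.99, -5.06 and -4.74 in room temperature mice 4, 5 and 6. Cold mouse 1 lay among the room temperature mice, while cold mice 2 and 3 lay below them. The difference was -0.49 ± 0.21 on the log2 scale (SE, 95% interval -0.98 to 0.01) with a limma adjusted p of 0.156, so it did not pass. Without mouse 1 it was -0.71 with a limma adjusted p of 0.0183, and with the arrays not scaled it was -0.93 with a limma adjusted p of 0.0886. It was 0.11 under normexp background correction, -0.13 with no filter on dim probes and -0.13 with the software's total signal, so its direction depended on the setting. A_54_P4369, normalised the same way, differed by 0.22 on the log2 scale.

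Muscle miRNAs moved with A_54_P4368, the only kept probe of miR-128, across the mice. The 3 of the 188 other tested miRNAs whose normalised levels were most like it over the 6 mice were miR-206, miR-133a and miR-1, all of striated muscle, with a Pearson correlation of 0.971, 0.951 and 0.947. miR-206 lay at -3.06, -4.80 and -5.28 in cold mice 1, 2 and 3 and at -2.37, -2.88 and -1.75 in room temperature mice 4, 5 and 6, so that cold mouse 1 was high within its group there as well. Without the 2 mice farthest from the median of miR-128 the correlations were 0.823, 0.519 and 0.461. The other miR-128 probe, A_54_P4369, did not show this order of mice. It lay at -4.64, -4.90 and -5.14 in cold mice 1, 2 and 3 and at -4.96, -5.51 and -4.86 in room temperature mice 4, 5 and 6. It was highest in cold mouse 1 and lowest in room temperature mouse 5, so the likeness holds for 1 probe. These are descriptions of 6 mice whose arrays also differ in scaling percentile and slide row. Of the 6 listed muscle miRNAs 4 were tested, and 3 of them fell in the cold (miR-206, miR-133b and miR-133a, by 2.05, 1.97 and 1.88 on the log2 scale, limma adjusted p = 0.0453, 0.0228 and 0.0229), with a median over the 4 of -1.92 against -0.02 over all 189 tested miRNAs. The part of muscle RNA in the signal of miR-128 was not tested.

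The other neural miRNAs on the list gave no call. Of 12, none was well above background on all arrays, 3 were so on some (miR-7a, miR-218 and miR-219) and 9 on none, among them miR-124*, miR-9*, miR-137, miR-153 and both miR-129 arms. Those 3 are also made outside neural tissue. Their normalised levels differed by -0.31 for miR-7a (limma adjusted p = 0.299), 0.08 for miR-218 (limma adjusted p = 0.753) and -0.23 for miR-219 (limma adjusted p = 0.299), all on the log2 scale, with a median over the 3 of -0.23. The summed signal of all 15 neural miRNAs, of which miR-128 gave a large part, was 51.5 to 71.5 units in cold mice and 84.2 to 141 units in room temperature mice. The summed epithelial signal was 174 to 242 units in cold mice and 223 to 329 units in room temperature mice, with overlap, and the summed liver signal was 69.3 to 104 units in cold mice and 108 to 291 units in room temperature mice. Divided by the scaling percentile, the liver ranges overlapped, at 0.101 to 0.113 in cold mice and 0.11 to 0.337 in room temperature mice. The epithelial ones did too, at 0.263 to 0.279 in cold mice and 0.22 to 0.333 in room temperature mice. The neural ones did not, at 0.0779 to 0.0839 in cold mice and 0.0976 to 0.101 in room temperature mice. miR-128 itself, so divided, overlapped between the groups, and no tested neural miRNA passed limma. No fall in cold is read from the neural sum.

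**Figure D3:**
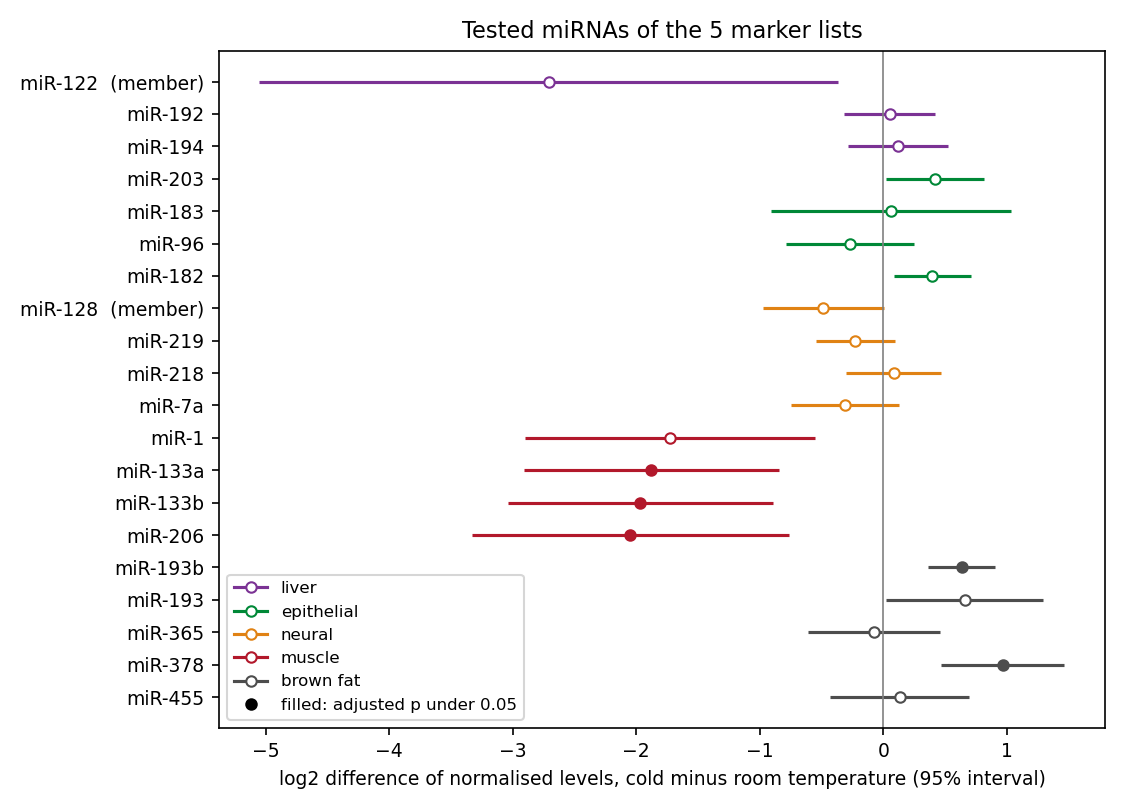
Difference of normalised levels between cold and room temperature mice (horizontal axis, log2, cold minus room temperature) with its 95% interval from limma, for each tested miRNA of the 5 lists, coloured by list. Filled points passed the threshold on the adjusted p, and neither tested marker, miR-122 at -2.71 nor miR-128 at -0.49, is among them.

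Against the mean of the negative control spots, 3 of the 10 markers lay above in all 6 mice and 4 lay below in all 6 mice, and the sign-flip test called each of these 7. Its adjusted p over all 576 miRNAs was 0.0396 for each, and its unadjusted exact p was 0.0312, the smallest that 6 mice can give. The 3 above were miR-122, miR-9 and miR-128, and the 4 below were miR-200a, miR-429, miR-205 and miR-124. Over all 576 miRNAs 47.7% were called above and 31.1% below, and whether the members' shares differ from these was not tested. The call of miR-122 was lost with its brighter probe in place of the mean of both (65.1 units, exact sign-flip p = 0.0625), since that probe lay below the controls in cold mouse 3. The call of miR-200a was lost with its brighter probe (-0.34 units, exact sign-flip p = 0.156) and with outlier spots kept (-0.577 units, exact sign-flip p = 0.0625). Of the 7 negative control sequences themselves, measured the same way against the mean of all control spots, 3 lay above in every mouse, 2 lay below in every mouse and 2 did neither, with mean differences from -0.344 to 0.895 units. Against the lowest control sequence, miR-205 and miR-124 stayed below in 6 of 6 mice (sign-flip adjusted p = 0.0417 each). The other calls were lost, with miR-200a below in 5 of 6 mice (sign-flip adjusted p = 0.113) and miR-429 in 4 of 6 (sign-flip adjusted p = 0.1475).

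Set against the highest of the 7 control sequences on each array in place of the mean, 1 of the 10 markers was called above, miR-128, against 42.2% of the 576 miRNAs. It was higher in 6 of 6 mice by at least 20.7 units. miR-122 was above the highest control sequence in 2 of 3 cold mice and in 3 of 3 room temperature mice, by -0.448 to 0.726 units in cold mice and by 6.09 to 176 units in room temperature mice. miR-9 was above it in 0 of 3 cold mice and in 3 of 3 room temperature mice, by 0.403 to 2.90 units. miR-200c exceeded it in 1 of 3 cold mice and in 2 of 3 room temperature mice, and the remaining 6 markers in none of the 6 mice. Counted this way, 1 marker (miR-128) was above every control sequence in all 3 cold mice, and 3 (miR-122, miR-9 and miR-128) were so in all 3 room temperature mice. Over the 576 miRNAs the shares were 43.8% for the cold mice and 44.3% for the room temperature mice.

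**Figure D4:**
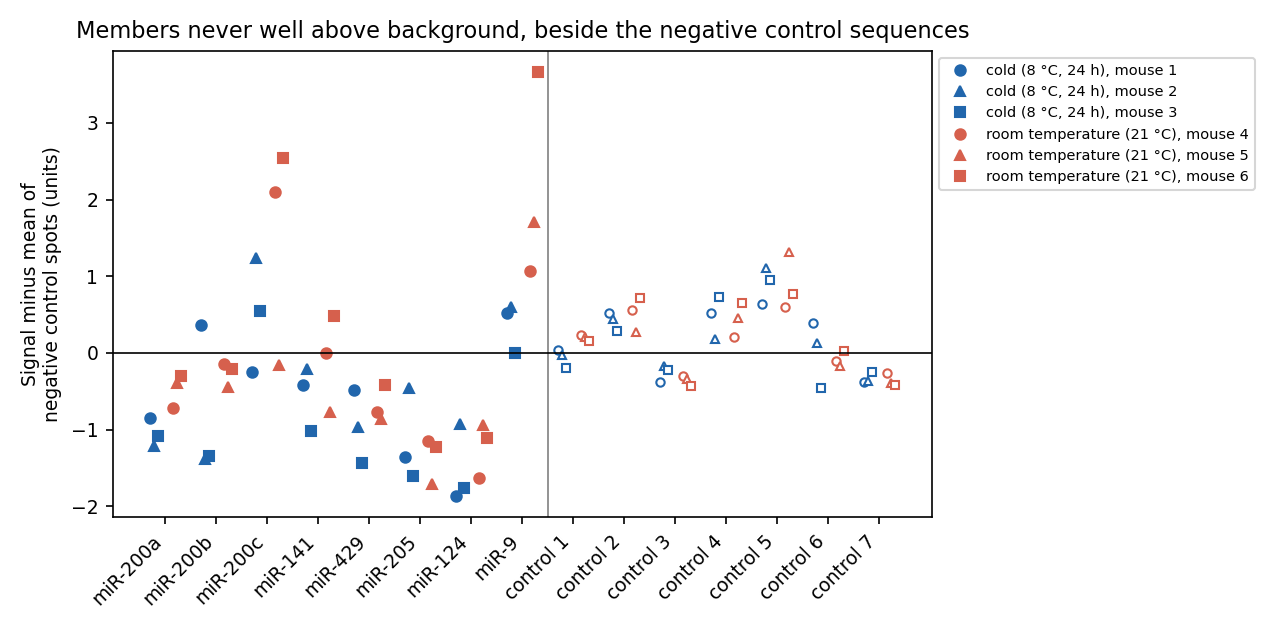
Signal of the 8 markers that were well above background on no array, and of the 7 negative control sequences (open symbols), each minus the mean of all negative control spots (vertical axis in scanner units), with cold mice in blue left of room temperature mice in red. miR-9 in the room temperature mice and miR-200c in mice 4 and 6 lie above the control sequences, miR-200c in mouse 2 lies just above them, and miR-205 and miR-124 lie below them in all 6 mice.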

How the data were processed

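Each array was deposited as scanner output. Per the file headers, the authors' Agilent Feature Extraction 10.7.3.1 wrote background-subtracted spot intensity on a linear scale, whereas the submitters' processing notes name version 9.5.3.1. The deposited value table held the same intensity values (largest difference 0.0, column medians 1.12 to 1.55 units).

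Control and outlier spots (2.09% to 2.63% of miRNA spots an array) were left out, none being saturated, and spots of a probe were averaged. Signals per mouse were compared without scaling by exact 2-sided permutation over mice, and against negative control spots by exact sign flips over 6 mice, adjusted over 576 miRNAs. For the fit, signals were scaled to the array's 75th percentile among the 267 probes well above background on all 8 arrays, floored at 0.01 and put on the log2 scale. A probe entered if over 0.5 of its spots passed that mark on all arrays of either group (329 of 1712, for 189 of 566 mouse miRNAs), and kept probes were averaged. Differences were tested with limma 3.58.1 in R 4.3.3, with Benjamini-Hochberg adjustment at 0.05. Other steps used Python 3.11.15, numpy 2.4.6 and pandas 2.3.3, and both tests were tested on simulated data. The files held no mean pixel signal, so normexp (offset 50) used the median. Alternatives were the percentile over all probes, no scaling, quantile normalisation, normexp, 2 other filters, the software's total signal per miRNA, the brightest probe, 1 array a mouse, other detection marks, outliers kept, the controls' median and leaving out each mouse. The highest and the lowest control sequence were added after seeing the data. Named miRNAs were all members, listed miRNAs that passed limma or were well above background on 4 or more of the 8 arrays, and the 3 most alike each tested member. Those outside this rule were named after their values were seen. The members and lists were chosen with earlier results of these data known. The labels do not say whether RNA of different mice was extracted in batches, and p-values measure the spread between these mice.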

Additional observations from a re-analysis of the deposited data

How the results depend on the processing

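The count of miRNAs past the limma threshold, 29 of 189 (16 higher and 13 lower in cold), was 28 (11 and 17) where all probes set the percentile, 13 (0 and 13) unscaled, 45 (23 and 22) with quantile normalisation, 6 (2 and 4) with normexp, 5 (2 and 3, of 566) with no filter, 16 (10 and 6, of 158) with probes above background on all arrays, 31 (20 and 11) with 1 array a mouse, and 8 to 33 leaving out a mouse (8 without mouse 6, 11 without mouse 2, 13 without mouse 5 and 14 without mouse 3). The median difference was -0.02, and -0.46 with no scaling and 0.21 with normexp. Against the controls, 3 markers were called above, 1 with the highest control sequence, 10 with the total signal, which the software never lets reach 0, and 0 to 0 leaving out a mouse, where 5 mice cannot give a p under 0.0625. miR-128 turned to 0.11 with normexp, and miR-141 to 0.15 units above the controls with its brighter probe; the cause was not tested. Markers without overlap and lower in cold were 2 of 10, against 16.3% of the 576 miRNAs. They were 2 to 5 leaving out a mouse: 5 without mouse 1 (miR-122, miR-9, miR-128, miR-200b and miR-429) and 5 without mouse 5 (miR-122, miR-9, miR-128, miR-141 and miR-200c). The share over all miRNAs is not given for these settings. Since 2 mice against 3 separate more readily than 3 against 3, nothing is read from these counts. Markers well above background on a cold array were 1, 0 if every spot had to be and 2 by the weaker mark (with miR-9). On room temperature arrays they were 2, and 4 by the weaker mark (with miR-9 and miR-200c). No paired analysis was possible because the groups share no mouse numbers.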

Other observations

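The miRNAs most like miR-122 in normalised level over the 6 mice were miR-329, miR-324-5p and miR-300, with a Pearson correlation of 0.996, 0.937 and 0.933. miR-329 and miR-300 are encoded in the imprinted Dlk1-Dio3 cluster. miR-329 lay at -4.91, -4.91 and -4.88 in cold mice 1, 2 and 3, and at -4.91, -3.93 and -4.38 in room temperature mice 4, 5 and 6. Mouse 5 was highest and mouse 6 next, as for miR-122, and mouse 4 lay among the cold mice, which it did not for miR-122. Without mice 5 and 6, the farthest from the median of miR-122, the correlations were -0.263, 0.656 and -0.811, so the likeness to miR-329 and miR-300 rested on those mice. None of these miRNAs passed the limma test (adjusted p of 0.19 for miR-329, 0.293 for miR-324-5p and 0.423 for miR-300).

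The array also held probes for 10 viral miRNAs, which mouse tissue does not encode. Their mean signal was 1.37 ± 0.642 units in cold mice and 0.758 ± 0.422 units in room temperature mice (SD, n = 3 each), and 2 of the 10 were well above background on at least 1 array.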
